A study of Homo sapiens with 4 samples.

Results

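The 35 genes described here are NFE2L2, which encodes the transcription factor NRF2, its inhibitor KEAP1, and genes of glutathione, thioredoxin, NADPH, iron and xenobiotic metabolism that are known as NRF2 targets. They were taken by symbol, as a list drawn up with earlier results of these data known, from the 18134 genes of the expression table, and 35 of 35 were found. RNA-seq had been performed on PC9 cells, an established human lung adenocarcinoma line, to compare cells with and without knockdown of TPX2, a protein of the mitotic spindle. Cells infected with lentivirus carrying a control hairpin (shNC) and cells infected with lentivirus carrying a hairpin against TPX2 (shTPX2) were selected with antibiotic as stable lines, and each group comprised 2 libraries of 1 batch. Both groups therefore carried a lentiviral hairpin and had passed antibiotic selection. The labels do not say whether the 2 libraries of a group came from separate cultures. The p-values set the difference between groups against the spread between these libraries, which may be technical. That spread was estimated with information shared across all tested genes.

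NRF2 binds, together with a small MAF protein, to antioxidant response elements in the regulatory DNA of its target genes. In unstressed cells KEAP1 holds NRF2 in the cytoplasm and presents it to a CUL3 ubiquitin ligase for degradation, and oxidants or electrophiles that modify KEAP1 release it. Since NRF2 is controlled mainly at the level of the protein, the mRNA level of NFE2L2 is not a measure of its activity, and target genes are usually read in its place.

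The core of the antioxidant response element, TGACNNNGC, was searched on both strands of the 300-base windows that RefSeq (GRCh38.p14) gives for promoters, from 250 bases before to 50 bases after each start site. It was present in 8 of the 27 members with a window (29.6%), against 13.6% of 27305 promoters in all and 14.7% of the 10938 promoters of tested genes. HMOX1, SLC7A11, AKR1B10, ABCC1, ABCC3, GSR, FTH1 and PRDX1 had no window. The 10 matches are shown because they are the letters that NRF2 is known to recognise. Each is given along the strand of its gene, with the core in capitals (seen here as its reverse complement where it was read on the other strand) and 10 flanking bases on either side.
GCLM, chr1:93909446-93909474, minus strand: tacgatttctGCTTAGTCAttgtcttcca
TXNRD1, chr12:104215670-104215698, plus strand: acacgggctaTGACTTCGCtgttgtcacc
TXNRD1, chr12:104215761-104215789, plus strand: gcgtccttcgGCTCCGTCAgttcccacag
PGD, chr1:10398853-10398881, plus strand: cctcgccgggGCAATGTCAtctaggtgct
ME1, chr6:83431170-83431198, minus strand: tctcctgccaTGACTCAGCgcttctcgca
ME1, chr6:83431022-83431050, minus strand: gctgcagtcaGCACCGTCAccccagcagc
GPX2, chr14:64942849-64942877, minus strand: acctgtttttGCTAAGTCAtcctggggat
PIR, chrX:15493289-15493317, minus strand: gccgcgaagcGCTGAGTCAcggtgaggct
CBR1, chr21:36069855-36069883, plus strand: tgcgggttctGCAAAGTCAggctagctgg
GSTP1, chr11:67583736-67583764, plus strand: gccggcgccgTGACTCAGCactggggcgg
The core began 66 bases before the start site of GSTP1, 122 before that of GPX2 and 34 before that of GCLM. A match describes the letters only, and no binding was measured. The 8 members with a match were not alike in their values below, which ran from a log2 fold change of -0.45 for ME1 to 0.90 for GPX2.

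Depth was even, with 20906441 to 21972583 expected counts per library. TPX2 itself stood at 55.01 and 111.85 TPM (transcript abundance scaled for length and to the same total in every library) in shNC 1 and shNC 2, and at 43.35 and 43.77 TPM in shTPX2 1 and shTPX2 2. Both shTPX2 libraries were below both shNC libraries, by a log2 fold change of -0.81 (SE 0.32, edgeR unadjusted p = 0.0403, adjusted p = 0.618). The control library shNC 2 decided this size, as the value was -0.24 without shNC 2 and -1.21 without shNC 1. Over all tested genes shNC 1 resembled shTPX2 1 (Pearson r of log2 CPM 0.983, across genes, which are not independent replicates) more than shNC 2 (0.972). Of 9 lung epithelial markers 6 were above 1 TPM in every library, namely EPCAM, CDH1, KRT7, KRT8, KRT18 and KRT19. The lineage factor NKX2-1 reached only 0.04 to 1.55 TPM, NAPSA 0.83 to 1.67 TPM and SFTPB 0.47 to 1.05 TPM. The summed level of the list was 20016 to 27564 TPM. Summed fibroblast markers were at 5.90 to 12.4 TPM, endothelial markers at 19.9 to 36.5 TPM and immune markers, mainly CD68, at 133 to 249 TPM.

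All 35 members passed the filter on low counts and were tested among 14048 genes. For 16 of them the expected count was not whole in at least 1 library. They were NQO1, GCLM, SLC7A11, TKT, AKR1B10, AKR1C1, AKR1C2, AKR1C3, ABCC1, ABCC3, GSR, FTH1, EPHX1, UGDH, PRDX1 and CBR1. Such counts were common, with 42.2% to 44.6% of all genes of the expression table in each library. The values of these 16 members, AKR1B10 and PRDX1 included, hold the uncertainty of an estimated count. No member had an adjusted p under 0.05 with edgeR's quasi-likelihood test (smallest 0.5785, for AKR1B10), nor did any of the genes tested (0%; DESeq2 called 108 genes, none of them a member). At an unadjusted p under 0.05, 4 members were higher in shTPX2 cells, AKR1B10, PRDX1, TXN and GPX2 (11.4% of the members), against 3.13% of all tested genes, and 0 members were lower, against 4.9%. DESeq2 gave the same number of members, 4 at an unadjusted p under 0.05 (1053 of all 14048 tested genes) and 0 after adjustment. Without shTPX2 2 the log2 fold changes in edgeR were 0.51 for AKR1B10, 0.47 for PRDX1, 0.51 for TXN and 0.36 for GPX2.

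In value, 29 members were higher and 6 lower in shTPX2 than in shNC cells, that is 82.9% higher against 48.9% of all tested genes. The median log2 fold change of the members was 0.22, and that of all tested genes -0.01. Here and below a fold change is shTPX2 against shNC on expected counts scaled with TMM factors. The median depended on shNC 2, without which it was 0.06 with 24 members higher, whereas without shNC 1 it was 0.31 with 33 members higher. It also depended on the scale, since 21 members were higher on the log2(TPM + 1) scale, where the median of all genes was itself shifted to -0.10 and 34.5% of all genes were higher.

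At the study's criteria for differentially expressed genes (DEGs; limma voom, an unadjusted p up to 0.1 with a log2 fold change of 0.3 or more in either direction), 7 members were higher: AKR1B10, PRDX1, TXN, GPX2, GSR, MAFG and ABCC2. This was 20% of the members, against 6.24% of all tested genes, and 0 members were lower, against 7.99%. The number of member DEGs changed with the library left out, and with the adjusted p in place of the unadjusted p it was 0. In TMM-scaled counts relative to library size (CPM) both shTPX2 libraries lay above both shNC libraries for 17 members (48.6%; 19.4% of all genes) and below them for 2, GCLM and ABCC3 (5.71%; 20.2% of all genes). In TPM the corresponding numbers were 6 members above (10.7% of all genes), TXN, AKR1B10, FTH1, PRDX1, MAFG and GSTP1, and 4 below (30.3% of all genes), NFE2L2, HMOX1, GCLM and ABCC3.

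**Figure D1:**
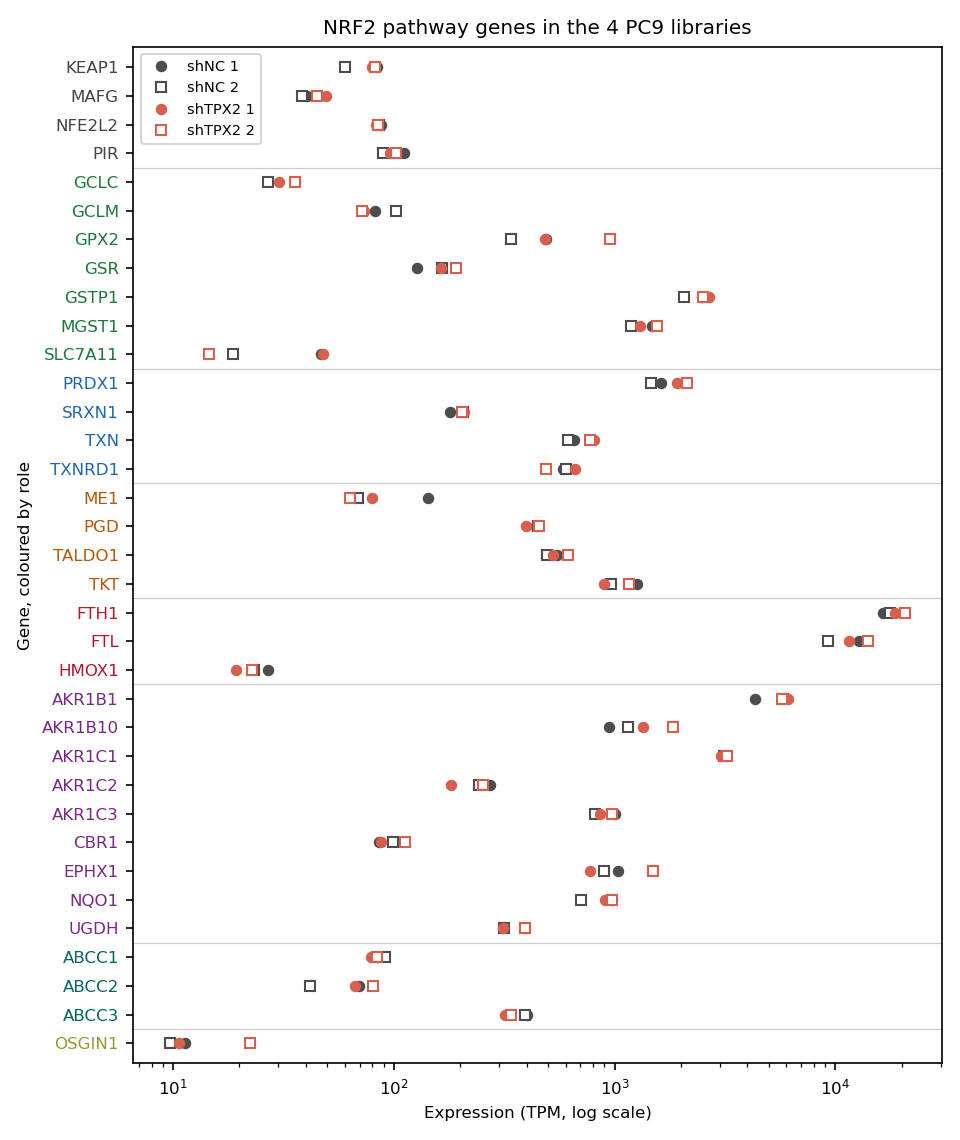
Expression of the 35 genes in each library, in TPM on a log axis, with filled circles for library 1 and open squares for library 2 of shNC (grey) and shTPX2 (red), and gene names coloured by role. Levels run from 9.71 TPM for OSGIN1 to 20725 TPM for FTH1, and for most genes the distance between groups is small beside this range.

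**Figure D2:**
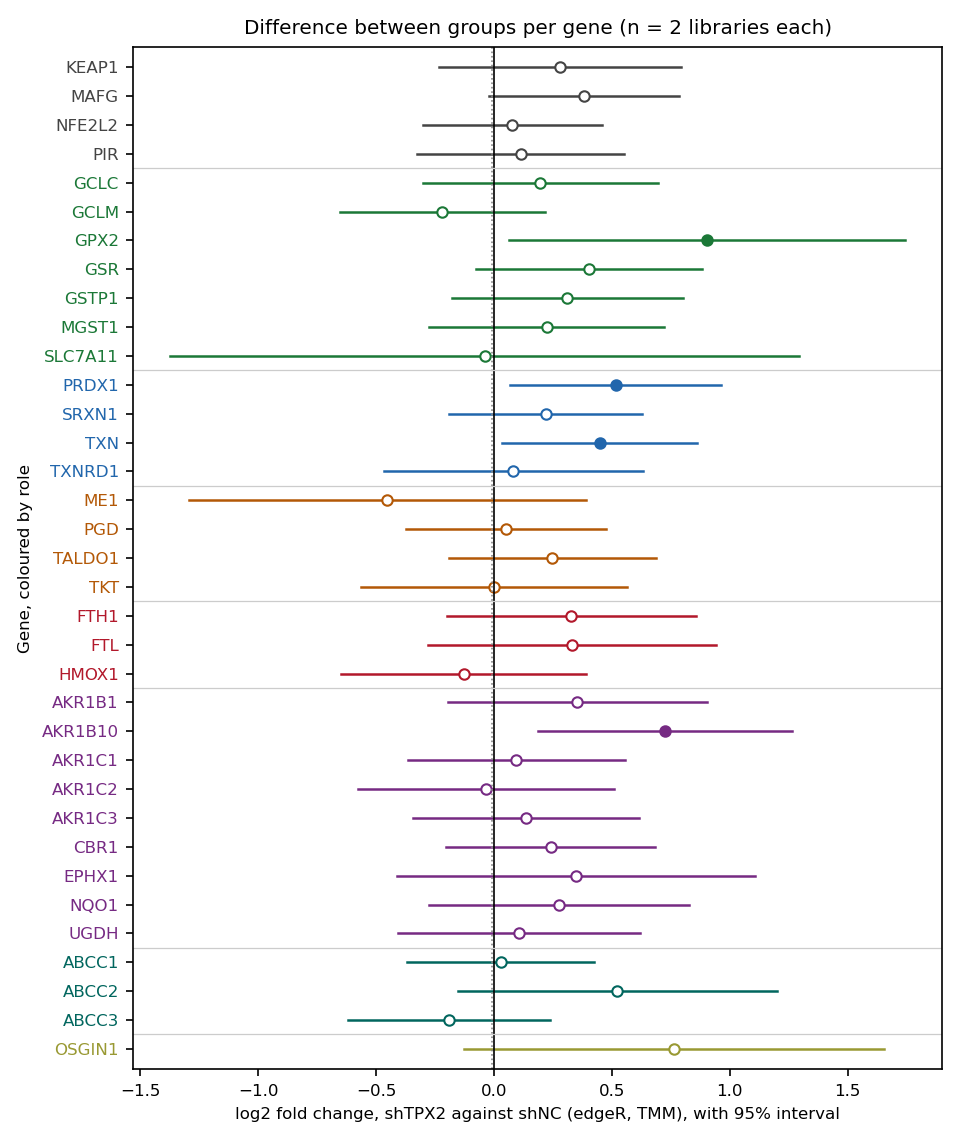
Log2 fold change of each gene, shTPX2 against shNC (edgeR, TMM), with its 95% interval, 2 libraries per group. Filled circles are the 4 genes with an unadjusted p under 0.05 (AKR1B10, PRDX1, TXN and GPX2), and the dotted line is the median of all tested genes at -0.01.

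The regulators are given first. NFE2L2 was at 87.57 and 86.10 TPM in shNC cells and at 83.24 and 85.04 TPM in shTPX2 cells. In TMM-scaled counts the order was the opposite, with 120 and 115 CPM in shNC cells and 124 and 124 CPM in shTPX2 cells. The log2 fold change on the latter scale was 0.08 (95% interval -0.30 to 0.46, edgeR unadjusted p = 0.638), an interval that includes 0. On the log2(TPM + 1) scale it was -0.045, but the median of all tested genes was -0.10 there, so that relative to that median NFE2L2 was slightly higher on both scales. KEAP1, the adaptor that targets NRF2 for degradation, was at 84.27 and 60.38 TPM in shNC cells and at 79.79 and 82.02 TPM in shTPX2 cells, with a log2 fold change of 0.28 (SE 0.21). Only shNC 2 stood apart for KEAP1, and without it the log2 fold change was 0.03. MAFG, a small MAF partner of NRF2 and itself one of its targets, was at 40.38 and 38.31 TPM in shNC cells and at 49.34 and 44.74 TPM in shTPX2 cells. The groups did not overlap on either scale, and the log2 fold change was 0.38 (SE 0.17, edgeR unadjusted p = 0.0593, adjusted p = 0.642). PIR, which encodes the iron-binding nuclear protein pirin, had a log2 fold change of 0.11.

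Among the 7 glutathione genes 5 were higher and 2 lower in shTPX2 cells, with a median log2 fold change of 0.22. GCLC and GCLM encode the catalytic and the modifier subunit of glutamate-cysteine ligase, the rate-limiting enzyme of glutathione synthesis. GCLC was at 35.63 and 26.95 TPM in shNC cells and at 30.20 and 35.57 TPM in shTPX2 cells, so that the groups overlapped (log2 fold change 0.20, SE 0.21; -0.02 without shNC 2). GCLM was at 82.20 and 102.26 TPM in shNC cells and at 73.28 and 71.65 TPM in shTPX2 cells, with both shTPX2 libraries lower (log2 fold change -0.22, SE 0.18, edgeR unadjusted p = 0.264; -0.08 without shNC 2). The opposite signs of the subunits thus rested on shNC 2. SLC7A11, the cystine importer that supplies cysteine for glutathione, was at 46.88 and 18.62 TPM in shNC cells and at 47.63 and 14.61 TPM in shTPX2 cells. Library 2 was far below library 1 in both groups, with differences of -1.26 and -1.47 on the log2 CPM scale, while the difference between groups was -0.04 (SE 0.55). It was 0.73 without shNC 1 and -0.95 without shTPX2 1, which leaves no direction for SLC7A11 in these libraries.

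GPX2, the selenium-dependent glutathione peroxidase of epithelia, had the largest log2 fold change of the members, 0.90 (SE 0.35, 95% interval 0.06 to 1.74, edgeR unadjusted p = 0.0388, adjusted p = 0.617). It was at 488.76 and 340.51 TPM in shNC cells and at 482.27 and 951.41 TPM in shTPX2 cells. Only shTPX2 2 was above both shNC libraries in TPM, and without shTPX2 2 the log2 fold change of GPX2 was 0.36. The 250 bases before the GPX2 start site are printed to show where the single match (capitals) lies in the promoter of this gene.
GPX2, chr14:64942746-64942995, minus strand: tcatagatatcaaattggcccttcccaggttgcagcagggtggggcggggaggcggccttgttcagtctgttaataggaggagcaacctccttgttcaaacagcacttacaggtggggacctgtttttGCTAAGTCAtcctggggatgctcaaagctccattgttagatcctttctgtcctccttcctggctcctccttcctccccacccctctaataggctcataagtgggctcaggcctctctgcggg
GSR, which regenerates reduced glutathione with NADPH, was at 126.90 and 166.18 TPM in shNC cells and at 163.57 and 192.05 TPM in shTPX2 cells, with a log2 fold change of 0.40 (SE 0.20, edgeR unadjusted p = 0.0853; 0.25 without shNC 1). Its groups were apart in CPM and overlapped in TPM. The glutathione transferase GSTP1 was at 2500 and 2066 TPM in shNC cells and at 2675 and 2528 TPM in shTPX2 cells, higher in both shTPX2 libraries by a log2 fold change of 0.31 (SE 0.20; 0.16 without shNC 2). MGST1, a membrane-bound glutathione transferase, had a log2 fold change of 0.22 with overlapping groups, and 0.05 without shNC 2.

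All 4 genes of the thioredoxin system were higher in value, with a median log2 fold change of 0.33. PRDX1, a peroxiredoxin that reduces hydrogen peroxide, was at 1617 and 1466 TPM in shNC cells and at 1922 and 2129 TPM in shTPX2 cells. TXN, the thioredoxin that restores oxidised peroxiredoxins, was at 652.29 and 612.78 TPM in shNC cells and at 809.50 and 773.71 TPM in shTPX2 cells. For PRDX1 and TXN the groups did not overlap on either scale and the libraries of a group lay close together. The log2 fold change was 0.52 for PRDX1 (SE 0.19, edgeR unadjusted p = 0.0305, adjusted p = 0.597), with a range of 0.42 to 0.62 when each library was left out in turn. For TXN it was 0.45 (SE 0.17, edgeR unadjusted p = 0.0379, adjusted p = 0.614), with a range of 0.38 to 0.52. TXNRD1, which reduces thioredoxin, was at 586.34 and 604.06 TPM in shNC cells and at 663.32 and 487.39 TPM in shTPX2 cells. The 2 shTPX2 libraries lay on either side of the controls, and the log2 fold change of TXNRD1 was 0.08 (SE 0.23). SRXN1, which repairs overoxidised peroxiredoxins, was at 180.47 and 204.90 TPM in shNC cells and at 207.31 and 204.12 TPM in shTPX2 cells, with a log2 fold change of 0.22 (SE 0.17), and in TPM shNC 2 lay beside both shTPX2 libraries.

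The 4 genes that supply NADPH or act in the pentose phosphate pathway had a median log2 fold change of 0.03. TALDO1 (transaldolase) was at 551.10 and 494.81 TPM in shNC cells and at 526.55 and 614.77 TPM in shTPX2 cells, with a log2 fold change of 0.25 (SE 0.18), and 0.15 without shNC 2. TKT (transketolase) and PGD (6-phosphogluconate dehydrogenase) had values of 0.00 and 0.05. ME1, the cytosolic malic enzyme, had the lowest log2 fold change of the members, -0.45 (SE 0.35), and shNC 1 at 142.94 TPM was far above the other 3 libraries, which were at 63.10 to 79.42 TPM. Without shNC 1 the log2 fold change of ME1 was 0.17, and without shNC 2 it was -0.89, with an edgeR unadjusted p of 0.00606 (adjusted p = 0.416), so this gene showed no direction independent of a single library.

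HMOX1 and the ferritins act in heme and iron handling. HMOX1, the inducible heme oxygenase, was at 26.86 and 23.18 TPM in shNC cells and at 19.39 and 22.70 TPM in shTPX2 cells. It was lower in both shTPX2 libraries in TPM and overlapped in CPM, with a log2 fold change of -0.13 (95% interval -0.65 to 0.39). FTH1, the heavy chain of ferritin, was the most abundant member at 16483 and 17625 TPM in shNC cells and at 18591 and 20725 TPM in shTPX2 cells, with a log2 fold change of 0.33 (SE 0.22, edgeR unadjusted p = 0.181). Both shTPX2 libraries were above both shNC libraries. FTH1 has processed pseudogenes, and its expected counts, like those of PRDX1 and AKR1B10, were not whole in 4 of 4 libraries. FTL, the light chain, had a log2 fold change of 0.33 with overlapping groups, and 0.10 without shNC 2.

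NQO1, the quinone reductase that is often used as a readout of NRF2, was at 972.61 and 707.16 TPM in shNC cells and at 901.57 and 969.35 TPM in shTPX2 cells. Its log2 fold change was 0.28 (95% interval -0.28 to 0.83, edgeR unadjusted p = 0.271) and 0.04 without shNC 2, the lowest library. AKR1B10, an aldo-keto reductase of retinals and lipid aldehydes, was at 948.41 and 1145 TPM in shNC cells and at 1338 and 1842 TPM in shTPX2 cells. It had the smallest p of the members, with a log2 fold change of 0.73 (SE 0.22, 95% interval 0.19 to 1.26, edgeR unadjusted p = 0.0160, adjusted p = 0.5785), and the value ranged from 0.51 to 0.93 when each library was left out. Its neighbour AKR1B1 (aldose reductase) was at 4324 and 5767 TPM in shNC cells and at 6095 and 5730 TPM in shTPX2 cells, with only shNC 1 apart in TPM and a log2 fold change of 0.35 (SE 0.23), which was 0.19 without shNC 1.

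AKR1C1, AKR1C2 and AKR1C3, which reduce steroid and other ketones, lie side by side on chromosome 10 (RefSeq, GRCh38.p14) and had log2 fold changes of 0.09, -0.03 and 0.13. AKR1C1 was at 3190 and 3133 TPM in shNC cells and at 3022 and 3223 TPM in shTPX2 cells. The groups of AKR1C1 overlapped in TPM and were apart in CPM, and on the log2(TPM + 1) scale the value was -0.02, above the median of all tested genes on that scale (-0.10). The coding sequences of AKR1C1 and AKR1C2 were 98% identical (953 of 972 bases), and 19.1% of the 100-base windows of AKR1C1 were found unchanged in AKR1C2. The first 150 coding bases (GENCODE v29 transcripts) are shown as an example of the letters that separate reads of these genes. This stretch holds more differences per base than the whole coding sequence. Capitals mark the 8 bases by which AKR1C1 and AKR1C2 differ from each other and, for AKR1C3, the 19 bases by which it differs from AKR1C1.
AKR1C1: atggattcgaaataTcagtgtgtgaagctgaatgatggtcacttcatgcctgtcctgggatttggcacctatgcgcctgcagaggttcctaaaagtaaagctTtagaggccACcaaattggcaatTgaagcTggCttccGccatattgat
AKR1C2: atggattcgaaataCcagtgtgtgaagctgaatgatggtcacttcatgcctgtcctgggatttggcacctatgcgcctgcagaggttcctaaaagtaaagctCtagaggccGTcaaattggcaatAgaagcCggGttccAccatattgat
AKR1C3: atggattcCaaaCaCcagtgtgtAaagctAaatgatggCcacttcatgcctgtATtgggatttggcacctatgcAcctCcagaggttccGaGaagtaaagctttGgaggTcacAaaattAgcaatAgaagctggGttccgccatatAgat
Fewer windows were found unchanged in AKR1C3, 2.18% of those of AKR1C1 and 8.25% of those of AKR1C2. The expected counts of all 3 genes were not whole in 4 of 4 libraries, which was common among all genes. How reads were split between the 3 genes was not tested, and each single value holds this uncertainty. The coding sequences of AKR1B1 and AKR1B10 were 75.8% identical with no shared 100-base window. Of the other genes of this role, CBR1 (a carbonyl reductase), EPHX1 (microsomal epoxide hydrolase) and UGDH (which makes UDP-glucuronate) had log2 fold changes of 0.24, 0.35 and 0.10 with overlapping groups. Without shTPX2 2 they were 0.08 for CBR1, -0.17 for EPHX1 and -0.03 for UGDH.

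The efflux transporters ABCC1, ABCC2 and ABCC3 export glutathione and glucuronide conjugates, and their log2 fold changes were 0.03, 0.52 and -0.19. ABCC2 was at 69.81 and 41.56 TPM in shNC cells and at 66.89 and 80.51 TPM in shTPX2 cells (SE 0.28, edgeR unadjusted p = 0.109). It was 0.18 without shNC 2, the library in which ABCC2 was low. ABCC3 was at 403.25 and 394.38 TPM in shNC cells and at 318.42 and 338.75 TPM in shTPX2 cells, and both shTPX2 libraries were lower on either scale (SE 0.18, edgeR unadjusted p = 0.322). OSGIN1, an oxidative stress-induced growth inhibitor, was the least abundant member at 11.31 and 9.71 TPM in shNC cells and at 10.64 and 22.31 TPM in shTPX2 cells. Its log2 fold change of 0.76 (SE 0.37, edgeR unadjusted p = 0.0814) was 0.17 without shTPX2 2, the only library in which OSGIN1 was high.

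For most members, as for most tested genes, the libraries of at least 1 group differed by more than the groups did. The larger of the 2 differences within a group exceeded the size of the log2 fold change in 24 of 35 members (68.6%), against 72.6% of all tested genes. The median absolute difference of the members was 0.28 in shNC and 0.18 in shTPX2 cells on the log2 CPM scale, against 0.28 and 0.23 over all tested genes. The members' median absolute log2 fold change was 0.24, against 0.21 over all tested genes. The members did not scatter evenly among the libraries. shNC 2 was the lowest library for 19 of 35 members (54.3%), against 30.1% of all tested genes, and shTPX2 2 was the highest for 19 of 35 (54.3%), against 24.8%. In shNC cells 27 of 35 members (77.1%) were lower in library 2 than in library 1, against 49.7% of all tested genes, with a median difference of -0.25 on the log2 CPM scale. In shTPX2 cells 24 of 35 (68.6%) were higher in library 2, against 48.1%, with a median difference of 0.12. TPX2 differed in the same control pair, by 0.98 on the log2 CPM scale with shNC 2 higher, and the summed lung epithelial markers were lowest in shNC 2 (20016 TPM, against 23988 to 27564 TPM in the other libraries). Keratins made up most of that sum, and within the same list EPCAM (293 TPM), NKX2-1 (1.55 TPM) and SFTPB (1.05 TPM) were highest in shNC 2. Their part in the members' values was not tested.

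**Figure D3:**
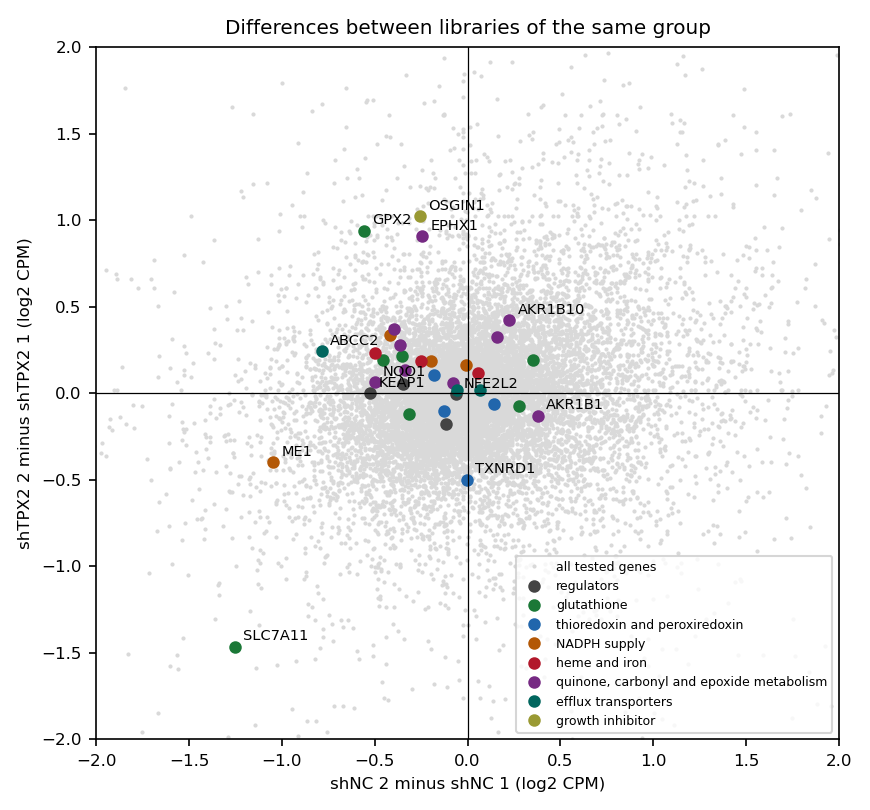
Difference in log2 CPM between library 2 and library 1 of the same group, in shNC cells (horizontal axis) and shTPX2 cells (vertical axis), for the 35 genes coloured by role and for all tested genes within the axis limits (grey). Members gather in the upper left part of the plot, where shNC 2 is low and shTPX2 2 is high, with medians of -0.25 and 0.12, while SLC7A11 is low in library 2 of both groups.

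A further 69 genes of the same pathways that are not among the members were examined in the same fit, and 46 were higher and 23 lower in shTPX2 cells, with a median log2 fold change of 0.13. None had an adjusted p under 0.05 in edgeR (0 also with DESeq2), and at an unadjusted p under 0.05 there was 1 higher gene, CUL3 (3.13% of all tested genes), and 2 lower genes, GPX3 and TXNIP (4.9%), with 4 genes in DESeq2. CUL3, the scaffold of the ubiquitin ligase to which KEAP1 presents NRF2, was at 73.03 and 76.62 TPM in shNC cells and at 97.06 and 107.84 TPM in shTPX2 cells (log2 fold change 0.57, SE 0.16, edgeR unadjusted p = 0.0110, adjusted p = 0.5785). TXNIP, which binds and inhibits thioredoxin, was at 257.99 and 566.94 TPM in shNC cells and at 171.20 and 163.06 TPM in shTPX2 cells (log2 fold change -1.18, SE 0.35, edgeR unadjusted p = 0.0144, adjusted p = 0.5785). GPX3, the secreted glutathione peroxidase, was at only 3.02 and 4.90 TPM in shNC cells and at 0.82 and 0.75 TPM in shTPX2 cells (log2 fold change -2.20, SE 0.46, edgeR unadjusted p = 0.00247, adjusted p = 0.460). For all 3 genes the groups did not overlap, so that TXN was higher and its inhibitor TXNIP lower in both shTPX2 libraries. The 2 shNC libraries differed for TXNIP by 1.10 on the log2 CPM scale, with shNC 2 higher, which is close to the size of its log2 fold change. A link between TXN and TXNIP was not tested.

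At the DEG criteria 8 of the 69 were higher (11.6%) and 5 lower (7.25%), against 6.24% and 7.99% of all tested genes. The higher genes included the aldehyde dehydrogenases ALDH3A2 (0.40) and ALDH3A1 (0.53), the mitochondrial thioredoxin TXN2 (0.35), GGCT of the glutathione cycle (0.43), AIFM2, which reduces coenzyme Q (0.40), TRIM16 (0.36) and SQSTM1 (0.83), all as log2 fold changes with an edgeR unadjusted p from 0.0557 to 0.0943. SQSTM1, the autophagy receptor that binds KEAP1, was at 1274 and 569.27 TPM in shNC cells and at 1152 and 1865 TPM in shTPX2 cells, so the groups overlapped in spite of the large value. The groups of ALDH3A1 and GGCT overlapped in TPM but were apart in CPM. Lower genes were ALDH7A1 (-0.38) and the glutathione transferase GSTM2 (-0.88), which was at 2.35 to 6.26 TPM. The fifth, not among the 12 smallest p, was NNT, the mitochondrial transhydrogenase (-0.48).

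**Figure D4:**
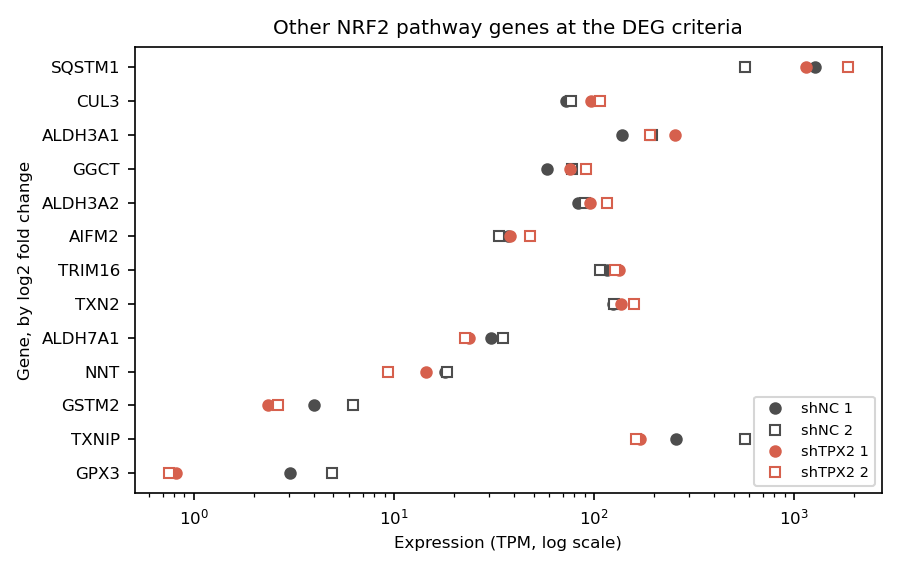
Expression in TPM on a log axis of the 13 further pathway genes that met the DEG criteria, ordered by log2 fold change, with filled circles for library 1 and open squares for library 2 of shNC (grey) and shTPX2 (red). CUL3 is higher and TXNIP and GPX3 lower in both shTPX2 libraries, whereas the groups of SQSTM1, ALDH3A1 and GGCT overlap.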

How the data were processed

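RNA-seq of 2 shNC and 2 shTPX2 libraries of PC9 cells was analysed from a gene table. The study's methods name SOAPnuke for read cleaning, HISAT2/Bowtie2 for alignment, and RSEM or StringTie for quantification. The submitters' processing notes name HISAT2, featureCounts, DESeq2 and GRCh38. Annotation and strand setting are not given in the sources used here. The authors deposited expected counts (not normalized, not whole for 42.2% to 44.6% of genes per library), FPKM (not used) and TPM values, and group means of each. The deposited TPM means were used in no test, because they are not means of the 2 listed libraries.

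Expected counts were rounded to whole numbers. Genes were kept by filterByExpr and tested with edgeR 4.0.16 (quasi-likelihood test, TMM, Benjamini-Hochberg adjustment across the 14048 genes kept; R 4.3.3). DEGs followed the study's criteria with limma 3.58.1 voom. Log2 fold changes are on TMM-scaled counts, and TPM gives levels. The common dispersion was 0.0485, so that for most genes library-to-library spread, rather than depth, limited the precision. Alternatives were RLE or library-size scaling, quantile normalization in voom, other count filters, a replicate block, DESeq2 1.42.0, and leaving out each library, where the lone library was assumed to vary like the other group. limma on log2(TPM + 1) was added after the data were seen. The members and gene lists were chosen with earlier results of these data known. Named genes were all members, TPX2, and those of the 69 further pathway genes with an edgeR unadjusted p under 0.05 or meeting the DEG criteria, up to 12 by smallest p; NNT was named beyond this rule after its values were seen. Library values are given for NFE2L2, KEAP1, NQO1, HMOX1, GCLC, GCLM, SLC7A11, TXNRD1, SRXN1 and members whose groups were apart or that met a threshold. Promoter windows came from RefSeq (GRCh38.p14) and coding sequences from GENCODE v29, matched by symbol, as the longest open reading frame. Scripts were tested on simulated data.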

Additional observations from a re-analysis of the deposited data

Results flagged for a closer look

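The authors' own group means, which the comparisons above do not use, held values for some members that their libraries do not show. HMOX1 had an authors' mean of 171 TPM for shNC and 114 TPM for shTPX2, while its 4 libraries were at 19.39 to 26.86 TPM. TXN had an authors' mean of 890 TPM for shTPX2, above both shTPX2 libraries at 773.71 and 809.50 TPM. These 3 values were singled out because they come from columns outside the comparisons and lie above all 4 libraries of the same gene. The authors' shNC means of TXN (705 TPM), OSGIN1 (14.0 TPM) and CBR1 (100.3 TPM) lay above both shNC libraries but not above all 4.

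For 29 of 35 members the authors' shNC mean, and for 30 of 35 the shTPX2 mean, lay outside the range of the 2 libraries, against 56.7% and 70.6% of all genes. Most lay below the range, 25 in shNC and 28 in shTPX2. For AKR1C1, AKR1C2, AKR1C3, AKR1B10 and GPX2 the authors' mean was 0.667 to 0.674 of the mean of the 2 shNC libraries and 0.500 to 0.504 of that of the 2 shTPX2 libraries. Multiplied by 3, 99.99% of the nonzero shNC means in TPM were whole hundredths, as were 100% of the shTPX2 means multiplied by 4 (tolerance 1e-05 TPM), whereas multiplied by 2 only 33.5% and 50.3% were. Any library beyond the 4 listed was not analysed here, and the cause was not tested.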

How the results depend on the processing

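No member had an adjusted p under 0.05 in any setting run, and with 2 libraries per group each difference between groups is limited by the spread between libraries. Genes at an adjusted p under 0.05 numbered 108 with DESeq2, 1 with limma on log2(TPM + 1) and 0 to 23 when each library was left out. Members at an unadjusted p under 0.05 numbered 1 of 35 on log2(TPM + 1) with limma, against 1139 of all 14048 tested genes. Member DEGs numbered 0 with the adjusted p and 2 to 11 with a library left out, and the further pathway genes at an unadjusted p under 0.05 numbered 6 on log2(TPM + 1) and 4 to 11 with a library left out. On log2(TPM + 1) these 6 of 69 genes stand beside the 1139 of all 14048 tested genes. The number of all tested genes at an unadjusted p under 0.05 also changed with the library left out. The counts of further pathway genes therefore show no excess by themselves. The members' median ranged from 0.056 to 0.31 with a library left out.

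The labels do not say whether same-numbered libraries were paired. Their deviations had a correlation of 0.18 over all genes in 2 pairs. The replicate block gave 5 members and 6 further pathway genes at an unadjusted p under 0.05. Of all 14048 tested genes 1353 were under 0.05 in that fit, against 1128 without the block. Member DEGs numbered 11 with the block, and the number over all genes was not taken there. In that fit GSR and MAFG came under 0.05 and GPX2 did not (edgeR unadjusted p = 0.0620). With library size only, all genes at an unadjusted p under 0.05 were 288 higher and 874 lower, against 440 and 688, and on log2(TPM + 1) 217 and 922. Relative to all genes, the members' median was 0.24 higher with library size only and 0.20 higher on log2(TPM + 1).

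The log2 fold change turned its sign with library size only for ABCC1 (-0.043), TKT (-0.061) and PGD (-0.018), and, where 10 counts were required of each library, for TKT (-0.0086). The median of all genes was -0.078 with library size only and -0.099 on log2(TPM + 1), and the values of ABCC1, TKT and PGD with library size only lay above it. On log2(TPM + 1) it turned for ABCC1 (-0.097), AKR1C1 (-0.019), NFE2L2 (-0.045), PGD (-0.075), PIR (-0.0014), TKT (-0.12), TXNRD1 (-0.066) and UGDH (-0.013). With a library left out it ranged from -0.22 to 0.19 for AKR1C2, -0.031 to 0.32 for AKR1C3, -0.17 to 0.74 for EPHX1, -0.021 to 0.45 for GCLC, -0.26 to 0.013 for HMOX1, -0.89 to 0.17 for ME1, -0.027 to 0.14 for PGD, -0.056 to 0.31 for PIR, -0.95 to 0.73 for SLC7A11, -0.20 to 0.24 for TKT, -0.18 to 0.32 for TXNRD1 and -0.072 to 0.31 for UGDH. The other members kept their direction under these settings. TPX2 ranged from -1.21 to -0.24. The causes were not tested.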
